A study of Mus musculus with 9 samples.

Results

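The TGF-beta ligand, its receptors and an induced gene were followed in CD11b+ cells of mouse spleen, as the 4 genes Tgfb1, Tgfbr1, Tgfbr2 and Tgfbi. They were chosen by name, as every probe set whose platform gene symbol was exactly 1 of these 4 of the 8252 genes named on the array, which gave 5 of the 12488 probe sets on the Affymetrix MG-U74Av2 array. Tgfbi had 2 probe sets and the others 1 each. CD11b, the integrin alpha M chain, is carried by neutrophils, monocytes, macrophages and some other leukocytes. The cells were sorted from spleens of female mice aged 8 to 12 weeks. The 9 arrays formed 3 groups of 3: tumor-bearing mice with the cells kept 24 h in complete medium (cultured), tumor-bearing mice with no culture (fresh), and tumor-free mice, whose cells were not labelled as cultured. The labels name neither the mouse strain nor the tumor, and do not say whether replicates came from separate mice, so a p-value here reflects the variation among these arrays alone and part of it may be technical.

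TGF-beta 1 is secreted in a latent form, bound to its propeptide and often to a latent TGF-beta binding protein, and is released by integrins or proteases. The active ligand binds the type II receptor (Tgfbr2), which phosphorylates the type I receptor (Tgfbr1), and this kinase phosphorylates Smad2 and Smad3, which enter the nucleus with Smad4. Macrophages and other myeloid cells both make and sense the ligand. Tgfbi encodes a secreted matrix protein, found in many cell types after TGF-beta treatment and also made by monocytes and macrophages.

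Each value is a MAS5 signal, a linear probe set intensity scaled by array before deposit. A signal says nothing of a gene's level against another gene's, since each probe set binds with its own efficiency. Detection calls were not used here, and precision is limited by having 3 arrays per group. For tests, 7.83 was added to each signal before log2 was taken. This offset is the 20th percentile of all values, and signals near or below it have little meaning as a level. Of the 5 probe sets, 2 passed the filter on low values (a mean log2 value above 4.53 over all arrays), those of Tgfb1 and the brighter of Tgfbi. The Tgfbr1, Tgfbr2 and second Tgfbi probe sets were below it and have no test in the fit over 8695 probe sets.

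One array of each group stood apart from the other two. Correlations of log2 values within a group were at least 0.929 for the closest pair of each group, whereas tumor-free 1 reached at most 0.827 with its own group and 0.860 with cultured 2. Fresh 3 and cultured 3 reached at most 0.900 and 0.869 with their own groups. The bacterial spike-in signal (mean log2 value over 9 probe sets) lay between 8.99 and 10.50, and the 3'/5' signal ratio of beta-actin, a measure of RNA integrity and labelling, between 0.994 and 2.57. Arrays above the median spike-in signal (cultured 1 and 2, fresh 1 and tumor-free 1) are called the high class below and the other 5 the low class. CD11b itself (Itgam) had signals of 333 to 954 in cultured cells, 392 to 585 in fresh cells and 244 to 373 in tumor-free cells. Of 5 listed pancreas acinar markers, 3 were measured. They summed to 266 to 583 in cultured cells, 4240 to 7100 in fresh cells and 300 to 518 in tumor-free cells. All fresh arrays thus lay above the others, as they did for Ctrb1 (at least 3040 against at most 369) and Prss2 (at least 994 against at most 115). Cela1 overlapped, at 203 on fresh 3 against 286 and 356 on tumor-free 2 and 3. The neutrophil granule genes Ngp and Camp were low on cultured 1 (4020 and 2540), cultured 2 (1150 and 1300) and tumor-free 1. Every other array had at least 7790 and 7700. Both genes were lowest on tumor-free 1, at 228 and 150. The neutrophil markers Ltf, Ly6g, Mpo and Elane were also lowest there. S100a8 (16000) and S100a9 (12200) were not, and lay within the ranges of the other arrays (7640 to 17400 and 4170 to 12700). The stromal genes Dcn and Col3a1 were at 559 and 280 there, against at most 41.9 and 31.7 elsewhere. Of the other stromal markers, Sparc was also highest there (112, against at most 28.5). Col1a1 (308) and Col1a2 (477) were not, and reached 398 and 641 on fresh 2.

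Tgfb1, the ligand, gave moderate signals on every array. The signals were 82.2, 125 and 91.4 in cultured cells, 115, 96.9 and 177 in fresh cells, and 160, 315 and 170 in tumor-free cells. All 3 cultured arrays lay below all 3 tumor-free arrays, while fresh 1 and fresh 2 lay within the cultured range and fresh 3 within the tumor-free range. The means were 99.5 ± 22.5 in cultured cells, 130 ± 42.2 in fresh cells and 215 ± 86.7 in tumor-free cells (SD, n = 3 each).

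No Tgfb1 difference passed limma's test. Fresh against tumor-free cells, the log2 fold change was -0.67 ± 0.33 (SE, adjusted p = 0.327), with a 95% confidence interval of -1.40 to 0.06. In that comparison 1.90% of all probe sets tested were called. Cultured against fresh cells it was -0.34 ± 0.33 (adjusted p = 0.691, interval -1.06 to 0.39), where 2.69% were called. Cultured against tumor-free cells it was -1.01 ± 0.33, with an interval of -1.73 to -0.28 and an adjusted p of 0.192, where 1.23% were called. The unadjusted p of 0.0112 was the only one under 0.05 for Tgfb1 or Tgfbi, and 14.1% of all probe sets had such a p in that comparison. The groups did not overlap for 18.5% of all probe sets in that comparison, with 8.20% lower and 10.3% higher in cultured cells, so such a separation is not rare on these arrays. The shares were 22.4% for fresh against tumor-free cells (9.34% higher, 13.1% lower) and 22.2% for cultured against fresh cells (13.4% higher, 8.81% lower). The comparisons share arrays and are not independent.

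The direction of Tgfb1 was the same in both spike-in classes. Within the high class, fresh over tumor-free was -0.45 and cultured over tumor-free -0.62. Within the low class they were -0.78 and -1.27. The high class holds 1 fresh and 1 tumor-free array, and the low class 1 cultured array. The highest tumor-free array weighed on the result: without tumor-free 2 the fresh difference was -0.37 and the cultured one -0.71 (adjusted p = 0.740 and 0.552).

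**Figure D1:**
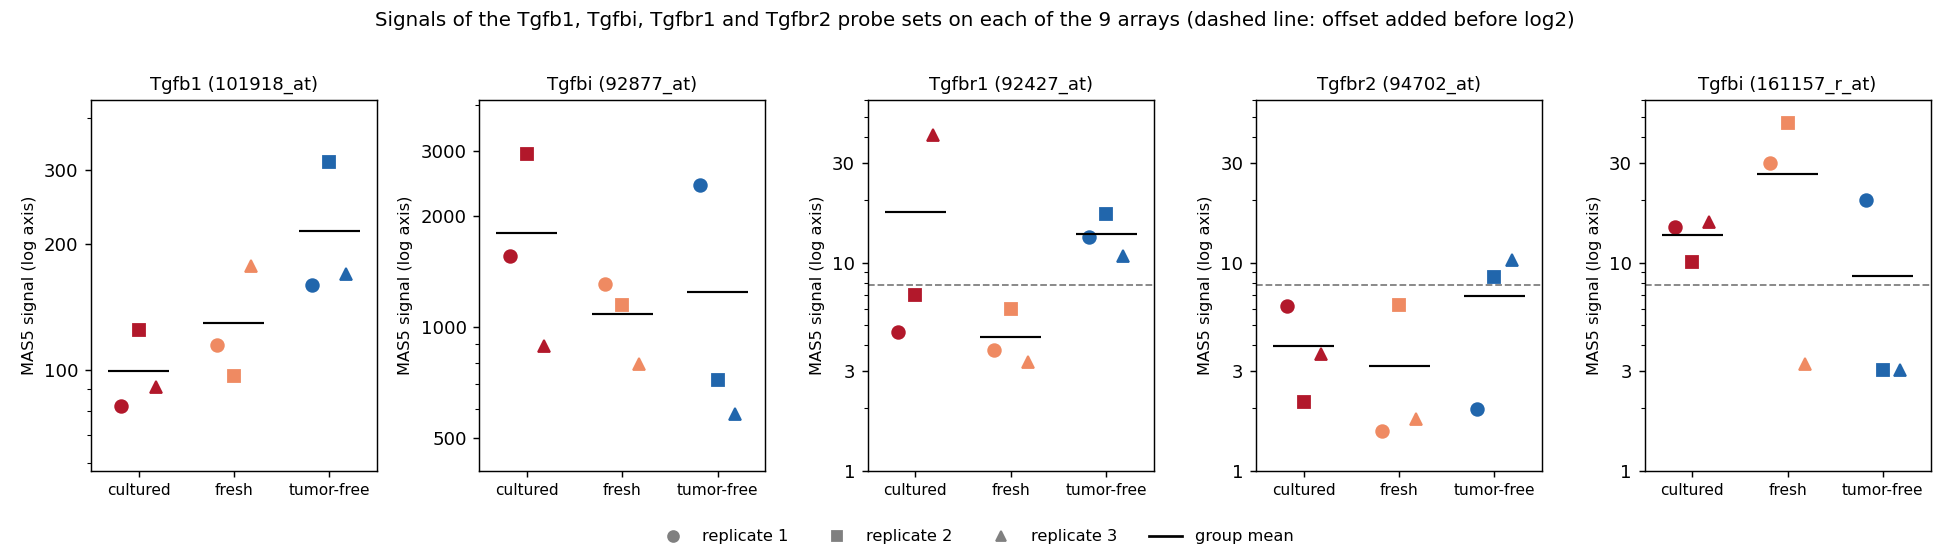
MAS5 signal (log axis) of each probe set by group, with cultured, fresh and tumor-free from left to right. Points are single arrays with a symbol for each replicate number, black lines are group means, and the dashed line is the offset of 7.83. Cultured Tgfb1 signals (82.2 to 125) lie below the tumor-free ones (160 to 315), and Tgfbr2 lies below or near the offset on every array.

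Sums of markers of other cell types were set beside Tgfb1. Both T cells and platelets are known sources of the ligand. The summed signal of 6 T cell markers was 92.2 to 194 in cultured cells, 152 to 208 in fresh cells and 233 to 348 in tumor-free cells, so tumor-free arrays lay above both other groups. That separation rests on Thy1 on tumor-free 1 (227, against at most 18.4 on each other array), the array with high Dcn, Col3a1 and Sparc. Without Thy1, a choice made after its values were seen, the sum was 81.0 to 176 in cultured cells and 145 to 203 in fresh cells, against 121, 225 and 219 in tumor-free cells, and the groups overlapped. Of the CD3 chains, Cd3d was at 37.5, 47.5 and 101 in fresh cells against 21.4, 43.2 and 53.2 in tumor-free cells. Cd3e was at 16.0 to 26.5 against 11.1 to 16.5, not far above the offset of 7.83. Cd4 went the other way on average, at 75.3, 105 and 81.7 in fresh cells against 74.9, 161 and 145 in tumor-free cells. Cd3g reached at most 11.6 and Cd8a 5.85 on any array. The 4 platelet markers measured, of 6 listed, summed to 51.1 to 66.8 in cultured cells, 57.9 to 124 in fresh cells and 44.0 to 83.2 in tumor-free cells, and their groups overlapped. None of them exceeded 43.9 on any array and many signals were near the offset of 7.83, so these sums say little of platelet content. The 8 macrophage markers summed to 3520 to 4350 in cultured cells, 1980 to 2180 in fresh cells and 4290 to 13600 in tumor-free cells. Hmox1 made up most of the cultured sums, at 2610 to 3270 against 784 to 939 in fresh cells. Cd68 was also higher on all cultured than on all fresh arrays (570 to 900 against 298 to 519). Mrc1 (16.8 to 22.7 against 98.3 to 195) and Vcam1 (41.7 to 56 against 75.5 to 194) were lower in cultured cells. Adgre1, C1qa, C1qb and C1qc overlapped between these groups. The 2 monocyte markers (Ccr2 and Cx3cr1) summed to 190 to 483 in cultured cells, 260 to 488 in fresh cells and 558 to 1260 in tumor-free cells. The part of these cells in the Tgfb1 signal was not tested. In sorted bulk samples, fewer cells of a type and less RNA per cell cannot be told apart.

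Tgfbr1, the type I receptor kinase, was dim. The signals were 4.64, 6.98 and 40.9 in cultured cells, 3.80, 5.98 and 3.33 in fresh cells, and 13.3, 17.2 and 10.7 in tumor-free cells. All 3 fresh arrays were below the offset and all 3 tumor-free arrays above it, while the cultured group was spread over both sides by cultured 3. The log2 difference was -0.82 for fresh over tumor-free, 0.78 for cultured over fresh and -0.04 for cultured over tumor-free cells. In a fit with no filter on low values the adjusted p were 0.431, 0.509 and 0.984, and none of the 3 unadjusted p was below 0.05 (lowest 0.0921). Groups separated in this direction for 13.1% of all probe sets tested in the first of these comparisons. The size depends on the offset: fresh over tumor-free was -1.29 with the 5th percentile as the offset and -0.40 with the 40th. Without cultured 3, the difference of cultured over fresh cells was 0.16. The macrophage marker sums given above were also lowest in fresh cells, against cultured cells largely through Hmox1. Their part in the Tgfbr1 signal was not tested.

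Tgfbr2, the type II receptor that binds the ligand, gave signals too low to compare. They were 6.19, 2.15 and 3.63 in cultured cells, 1.55, 6.24 and 1.78 in fresh cells, and 1.99, 8.55 and 10.3 in tumor-free cells. All but tumor-free 2 and 3 lay below the offset, so 7 of 9 arrays gave no usable level. The differences on the log2 scale were -0.40 for fresh over tumor-free, 0.11 for cultured over fresh and -0.29 for cultured over tumor-free cells. With no filter, the adjusted p lay between 0.523 and 0.919 and none of the 3 unadjusted p was below 0.05. A low signal on this array can come from the probes as well as from a low transcript, and which applies to the receptors was not tested.

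Tgfbi was bright on every array and varied as much within groups as between them. Its brighter probe set gave 1557, 2942 and 888 in cultured cells, 1307, 1148 and 795 in fresh cells, and 2424, 721 and 583 in tumor-free cells. The highest and lowest values within a group differed by 3.31 times in cultured cells, 1.64 times in fresh cells and 4.16 times in tumor-free cells, and all 3 groups overlapped. The means were 1796 ± 1048, 1083 ± 262 and 1243 ± 1026 for cultured, fresh and tumor-free cells (SD, n = 3 each).

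None of the 3 Tgfbi differences passed limma's test, and none had an unadjusted p below 0.05. Fresh over tumor-free was 0.07 ± 0.55 on the log2 scale (SE, adjusted p = 0.957), with a 95% interval of -1.14 to 1.28. Cultured over fresh was 0.59 ± 0.55 (adjusted p = 0.677), with an interval of -0.62 to 1.80. Cultured over tumor-free was 0.66 ± 0.55 (adjusted p = 0.641), with an interval of -0.55 to 1.87. These intervals span both a rise and a fall of Tgfbi, so they do not show that the groups were alike. Single arrays moved the values: without cultured 2, cultured over fresh was 0.15 and cultured over tumor-free 0.22, while without tumor-free 1, cultured over tumor-free was 1.29 and fresh over tumor-free 0.70. The macrophage marker sums were lowest in fresh cells, against cultured cells largely through Hmox1, as given above. The 8 neutrophil markers summed lowest on cultured 2 (14700), tumor-free 1 (28800) and cultured 1 (35700), the 3 arrays with the highest Tgfbi. Fresh 1 and fresh 2, next in Tgfbi signal, had the highest neutrophil sums (52700 and 50600). The part of either cell type in the Tgfbi signal was not tested.

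**Figure D2:**
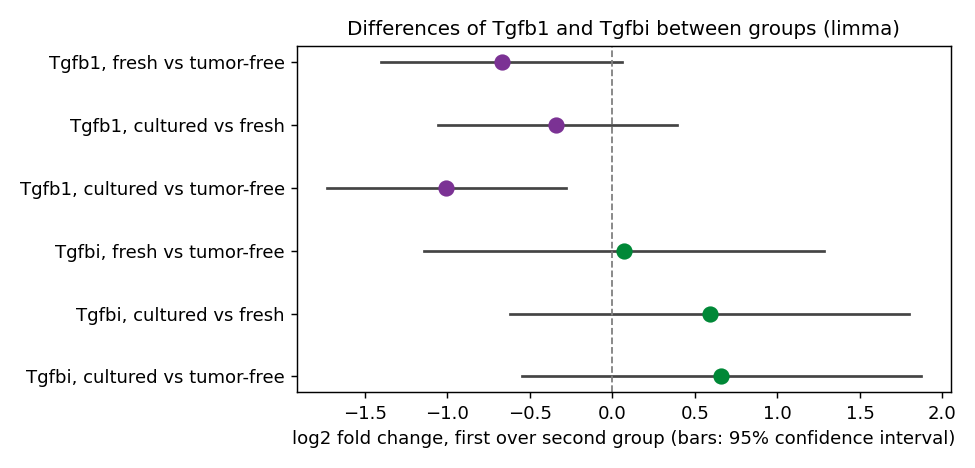
Log2 fold change of Tgfb1 (purple) and Tgfbi (green) in each comparison, first over second group, with 95% confidence intervals from limma. The Tgfb1 interval for cultured over tumor-free cells (-1.73 to -0.28) is the only 1 of the 6 that does not reach 0, and its adjusted p is 0.192.

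Tgfbi followed 2 measures of the arrays. The 5 arrays with its highest signals, cultured 2, tumor-free 1, cultured 1, fresh 1 and fresh 2 in falling order, were also the 5 with the highest beta-actin 3'/5' ratio (2.36, 2.57, 2.27, 1.59 and 1.58) and the 5 with the highest spike-in signal. The other 4 arrays had ratios of 0.994 to 1.35. Of all probe sets tested, 4.88% were higher on those 5 arrays than on each of the other 4. With the beta-actin ratio as a covariate, the standard error of the Tgfbi differences fell to 0.28 or 0.29, and the differences were -0.0028 for fresh over tumor-free, 0.18 for cultured over fresh and 0.18 for cultured over tumor-free cells (adjusted p from 0.794 to 0.997).

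The sign of the Tgfbi difference was not the same in both spike-in classes. Fresh over tumor-free was -0.89 within the high class, from 1307 on fresh 1 against 2424 on tumor-free 1. It was 0.55 within the low class, from 1148 and 795 against 721 and 583. Cultured over fresh was 0.71 within the high and -0.11 within the low class, and cultured over tumor-free -0.18 and 0.45. No within-class difference passed the test (adjusted p from 0.337 to 0.960), and the class with 1 array of a group assumes that it varies like the others.

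**Figure D3:**
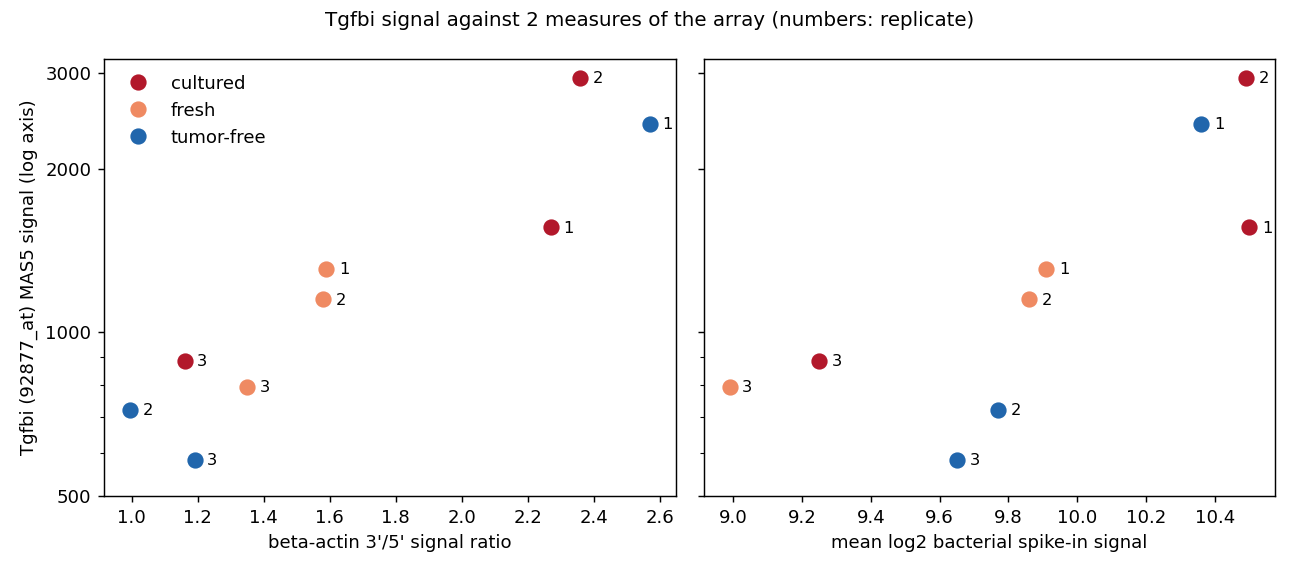
Signal of the brighter Tgfbi probe set (log axis) on each array against the beta-actin 3'/5' ratio (left) and the mean log2 spike-in signal (right). Colours are groups and numbers are replicates. The 5 arrays with ratios of 1.58 and more hold the 5 highest Tgfbi signals, 1148 to 2942, and come from all 3 groups.

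The second Tgfbi probe set was dim and matched the first in part. It gave 14.9, 10.1 and 15.7 in cultured cells, 29.99, 46.7 and 3.24 in fresh cells, and 19.9, 3.04 and 3.06 in tumor-free cells. Of its 9 signals, 3 were below the offset, on tumor-free 2, tumor-free 3 and fresh 3, which were also the 3 lowest arrays of the first probe set. Its highest array was fresh 2, where that of the first was cultured 2. Its differences were 0.93 for fresh over tumor-free, -0.42 for cultured over fresh and 0.51 for cultured over tumor-free cells. In the fit with no filter their adjusted p were 0.481, 0.834 and 0.785, and none of the unadjusted p was below 0.05 (lowest 0.127). The second difference is opposite in sign to that of the bright probe set, and the others share its sign.

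The genes with the most similar profiles were found by Pearson correlation of log2 values over the 9 arrays, as a description that rests on the same arrays and their differences in quality. For Tgfb1 they were Tmem223 (r = 0.944), Npepl1 (0.932), Naa15 (0.927), Ewsr1 (0.921) and Tmem147 (0.911). Like Tgfb1, Tmem223 was lower on all cultured arrays (41.4, 73.7 and 61.7) than on all tumor-free arrays (109, 155 and 111). For Tgfbi they were Fkbp1a (r = 0.943), Dap (0.935), Actb (0.933), Bag3 (0.932) and Eif2s2 (0.929). Fkbp1a encodes FKBP12, which binds type I receptors of the TGF-beta family and keeps them inactive without ligand. Its signals were 366, 553 and 257 in cultured cells, 404, 347 and 238 in fresh cells, and 759, 213 and 224 in tumor-free cells, with the same 5 arrays highest as for Tgfbi. Those 5 arrays were also highest for Actb, or beta-actin. It was at 2520, 2830 and 104 in cultured cells, 419, 445 and 190 in fresh cells, and 4430, 15.3 and 13.9 in tumor-free cells.

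For the dim receptors the likeness rests on few readings above the offset. For Tgfbr1 it was led by Cmpk2 (r = 0.969), Ifit2 (0.961), Lamtor5 (0.959), Pnp (0.959) and Nmi (0.959), of which Cmpk2, Ifit2 and Nmi are interferon-induced. Ifit2 was at 6.54, 22.7 and 639 in cultured cells, 1.26, 1.31 and 1.82 in fresh cells, and 76.0, 44.4 and 50.5 in tumor-free cells. Cultured 3 was the highest array for both Ifit2 and Tgfbr1. The fresh arrays were the 3 lowest for Ifit2, whereas for Tgfbr1 cultured 1 lay below fresh 2. For Tgfbr2 the leading genes were Cx3cr1 (r = 0.954), Papola (0.943), Cd180 (0.926), Myo9a (0.919) and Col14a1 (0.914). Cx3cr1, the fractalkine receptor of patrolling monocytes, was highest on tumor-free 2 and 3 (220 and 179), the 2 arrays on which Tgfbr2 lay above the offset.

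The wider pathway was covered by 4 lists with 96 genes in all, 80 of them on the array under 1 symbol and 62 with a probe set that passed the filter. Of these 62, 1 rose and 1 fell in fresh against tumor-free cells, 1 rose and 1 fell in cultured against fresh cells, and 2 fell in cultured against tumor-free cells. Over all probe sets, 0.943% rose and 0.955% fell in the first of these comparisons, 1.52% and 1.17% in the second, and 0.587% and 0.644% in the third. Counts this small are too few to judge against the background shares. Their median differences of 0.12, -0.04 and 0.11 lay beside medians of 0.01, 0.02 and 0.05 over all probe sets tested. The lists differed in this: the median of the 24 target genes was 0.45 in the first comparison (18 above 0), -0.34 in the second (18 below 0) and 0.12 in the third. The median of the 7 receptor genes was -0.23, 0.55 and 0.52, that of the 16 ligand and activator genes 0.01, -0.29 and 0.12, and that of the 17 Smads and regulators -0.23, 0.06 and 0.04.

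**Figure D4:**
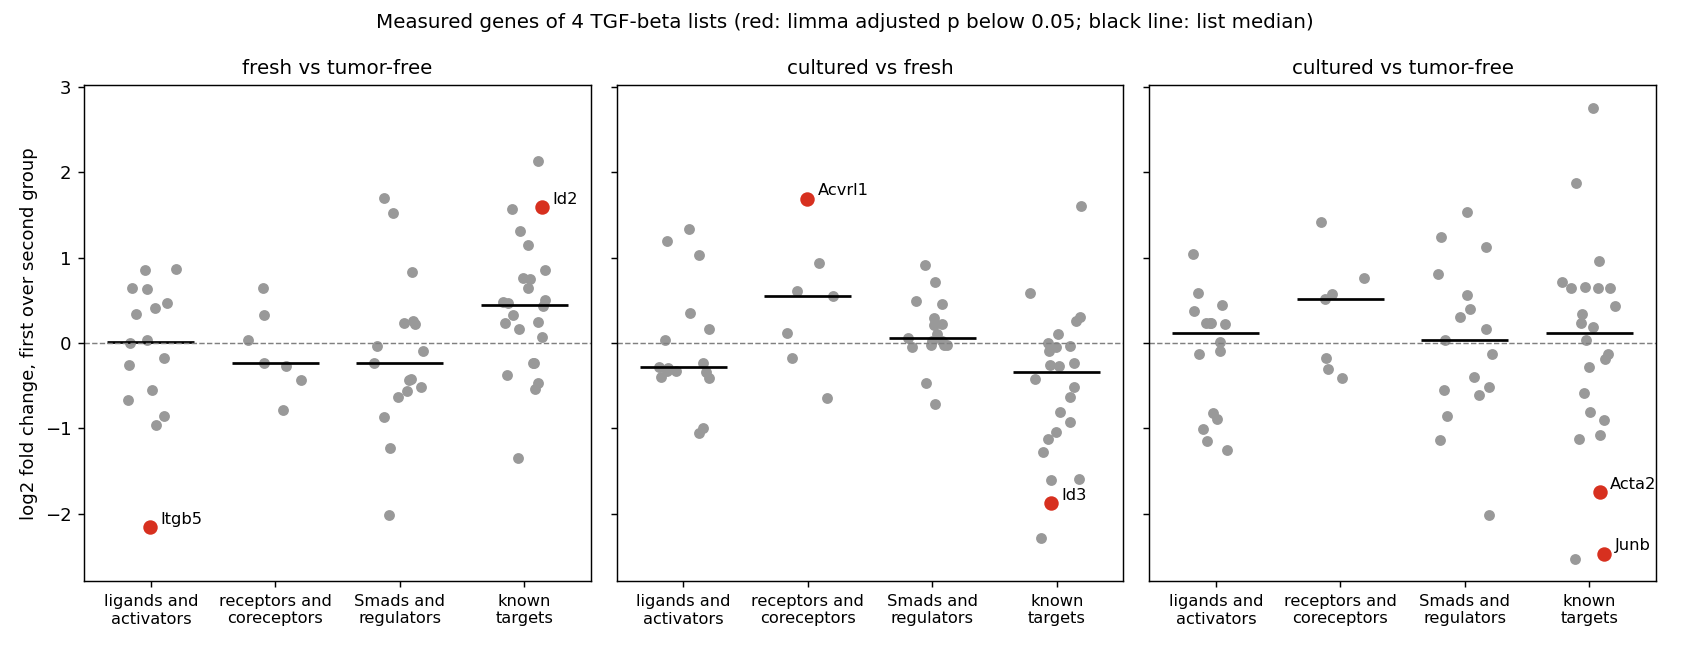
Log2 fold change of each measured gene of the 4 lists in each comparison, first over second group. Red points are named and had an adjusted p below 0.05 in limma, black lines are list medians, and the red points number 2 in each comparison.

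Among ligands and their activators (16 genes measured), Itgb5 fell in fresh against tumor-free cells and no other gene passed in any comparison. Itgb5 encodes the beta 5 integrin chain, which pairs with alpha V in a receptor able to release latent TGF-beta. Its signals were 154, 173 and 95.7 in cultured cells, 68.7, 36.2 and 48.0 in fresh cells, and 139, 363 and 301 in tumor-free cells. Fresh arrays lay below all others, with a log2 fold change of -2.16 ± 0.38 over tumor-free cells (adjusted p = 0.0178). The call did not hold without tumor-free 2, tumor-free 3 or fresh 2 (adjusted p up to 0.0959), and within the high spike-in class the change was -0.94 (adjusted p = 0.319). Macrophage sums were lowest in fresh cells, against cultured cells largely through Hmox1, and acinar sums were highest there, as given above. The part of either in the Itgb5 signal was not tested. A second Itgb5 probe set gave -0.18 (adjusted p = 0.811). The other ligand with a usable signal, Tgfb3, was at 57.6 to 62.4 in cultured, 54.9 to 103 in fresh and 46.2 to 87.7 in tumor-free cells, with differences of 0.34, -0.33 and 0.01 in the order of the comparisons above, none of them called. The Tgfb2 probe set was below the filter.

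Among receptors and coreceptors (7 genes measured, neither Tgfbr1 nor Tgfbr2 among them), Acvrl1 rose in culture. It encodes ALK1, a type I receptor for BMP9 and BMP10 that is best known from endothelium. Its brightest probe set gave 417, 419 and 180 in cultured cells, 120, 84.3 and 78.2 in fresh cells, and 123, 128 and 91.9 in tumor-free cells. The cultured arrays lay above all others, with a log2 fold change of 1.69 ± 0.34 over fresh cells (adjusted p = 0.0258). The other Acvrl1 probe sets gave 1.43 (adjusted p = 0.209) and 0.03 (adjusted p = 0.979), so the call rests on 1 of 3 probe sets, with a difference of like size in a second. The call did not hold when any 1 of the 3 fresh arrays, cultured 1 or cultured 2 was left out (highest adjusted p 0.129), nor within the low class (1.07, adjusted p = 0.317). The endothelial markers summed to 104 to 156 in cultured cells, 86.2 to 172 in fresh cells and 88.7 to 190 in tumor-free cells.

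The coreceptors Eng and Tgfbr3 were also measured. Eng, or endoglin, was at 166, 323 and 188 in cultured cells, 150, 153 and 117 in fresh cells, and 310, 211 and 222 in tumor-free cells. The fresh arrays were lowest, with -0.78 ± 0.29 over tumor-free cells (adjusted p = 0.212) and 0.61 for cultured over fresh cells (adjusted p = 0.340), neither of which passed. Groups separated in these directions for 13.1% and 13.4% of all probe sets tested. Tgfbr3, or betaglycan, was at 21.2 to 46.2, 26.2 to 31.6 and 7.45 to 31.5 in cultured, fresh and tumor-free cells, with differences of 0.64, 0.12 and 0.76, none of them called.

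None of the 17 measured Smads and regulators passed limma's test in any comparison, with 4, 3 and 6 at an unadjusted p below 0.05 in the order of the comparisons above. Over all probe sets tested, 16.7%, 16.3% and 14.1% had such a p. Smad2, a substrate of Tgfbr1, gave 96.1, 122 and 122 in cultured cells, 95.2, 118 and 133 in fresh cells, and 143, 183 and 181 in tumor-free cells. Both tumor-bearing groups lay below the tumor-free arrays, by -0.52 for fresh (adjusted p = 0.302) and -0.55 for cultured cells (adjusted p = 0.337). Groups separated in this direction for 13.1% and 8.20% of all probe sets tested in these comparisons. Smad4, the shared partner, gave 119 to 209 in cultured cells, 101 to 191 in fresh cells and 209 to 253 in tumor-free cells, with -0.63 for fresh over tumor-free cells (adjusted p = 0.314). Smad3 was dim, with means of 22.0 ± 17.4 in cultured cells, 18.2 ± 6.98 in fresh cells and 13.7 ± 2.49 in tumor-free cells (SD, n = 3 each). The inhibitory Smad7, itself induced by the pathway, was at 94.1 to 127, 89.7 to 111 and 78.1 to 148 in cultured, fresh and tumor-free cells, with no difference beyond -0.23. Ski, a repressor of Smad complexes, had differences of -0.42, 0.46 and 0.04.

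Among 24 measured genes known as TGF-beta targets in various cell types, Id2 rose in fresh cells, Id3 fell in culture, and Junb and Acta2 were lower in cultured than in tumor-free cells. Id2 and Id3 encode helix-loop-helix inhibitors of transcription, which BMP signals raise and TGF-beta raises or lowers depending on the cell. Id2 gave 2360, 2900 and 2330 in cultured cells, 4240, 3320 and 4190 in fresh cells, and 1530, 1130 and 1240 in tumor-free cells. The 3 groups did not overlap, and fresh over tumor-free was 1.59 ± 0.26 (adjusted p = 0.00996). In single comparisons, 9.34% of all probe sets tested lay higher in fresh than in tumor-free cells without overlap. Likewise 8.81% lay lower in cultured than in fresh cells and 10.3% higher in cultured than in tumor-free cells. Cultured cells stood between, at 0.96 over tumor-free (adjusted p = 0.108) and -0.63 over fresh cells (adjusted p = 0.241). Over the 21 alternatives run, the fresh over tumor-free difference of Id2 lay between 1.46 and 1.71, and its call did not hold without tumor-free 2, tumor-free 3 or fresh 1 (highest adjusted p 0.0795) nor within the high class (adjusted p = 0.129).

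Id3 gave 44.6, 24.2 and 18.2 in cultured cells, 138, 155 and 84.5 in fresh cells, and 58.6, 42.3 and 35.5 in tumor-free cells. Fresh arrays lay above all others, with -1.88 ± 0.35 for cultured over fresh cells (adjusted p = 0.0170) and 1.31 for fresh over tumor-free cells (adjusted p = 0.0925, not called). The fall in culture was -1.83 within the high and -2.24 within the low class, with adjusted p of 0.0792 and 0.0855. The call did not hold without fresh 1, fresh 2 or cultured 2 either (highest adjusted p 0.0867). Id2 and Id3 were highest where the acinar marker sums were highest, in fresh cells, and the part of acinar RNA in their signals was not tested.

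Junb, an AP-1 transcription factor gene induced within minutes by TGF-beta and many other stimuli, gave 788, 690 and 264 in cultured cells, 973, 801 and 1940 in fresh cells, and 2040, 3700 and 3360 in tumor-free cells. Cultured over tumor-free was -2.47 ± 0.46 (adjusted p = 0.0283), and a second probe set gave -2.38 with the same adjusted p. The call did not hold without tumor-free 2, tumor-free 3, fresh 1, cultured 1 or cultured 2 (highest adjusted p 0.129) nor within the high class (-1.46, adjusted p = 0.0503). Acta2, smooth muscle actin, gave 28.6, 41.1 and 54.9 in cultured cells, 94.8, 83.9 and 162 in fresh cells, and 231, 134 and 119 in tumor-free cells. Cultured over tumor-free was -1.75 ± 0.35 (adjusted p = 0.0406), a call lost in 12 of the 21 alternatives, among them quantile normalization (adjusted p = 0.0527). Its highest array, tumor-free 1, also had the highest sum of 5 fibroblast and stroma markers. That sum was 510 to 610 in cultured cells, 600 to 1140 in fresh cells and 526 to 1740 in tumor-free cells, and its part in the Acta2 signal was not tested.

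**Figure D5:**
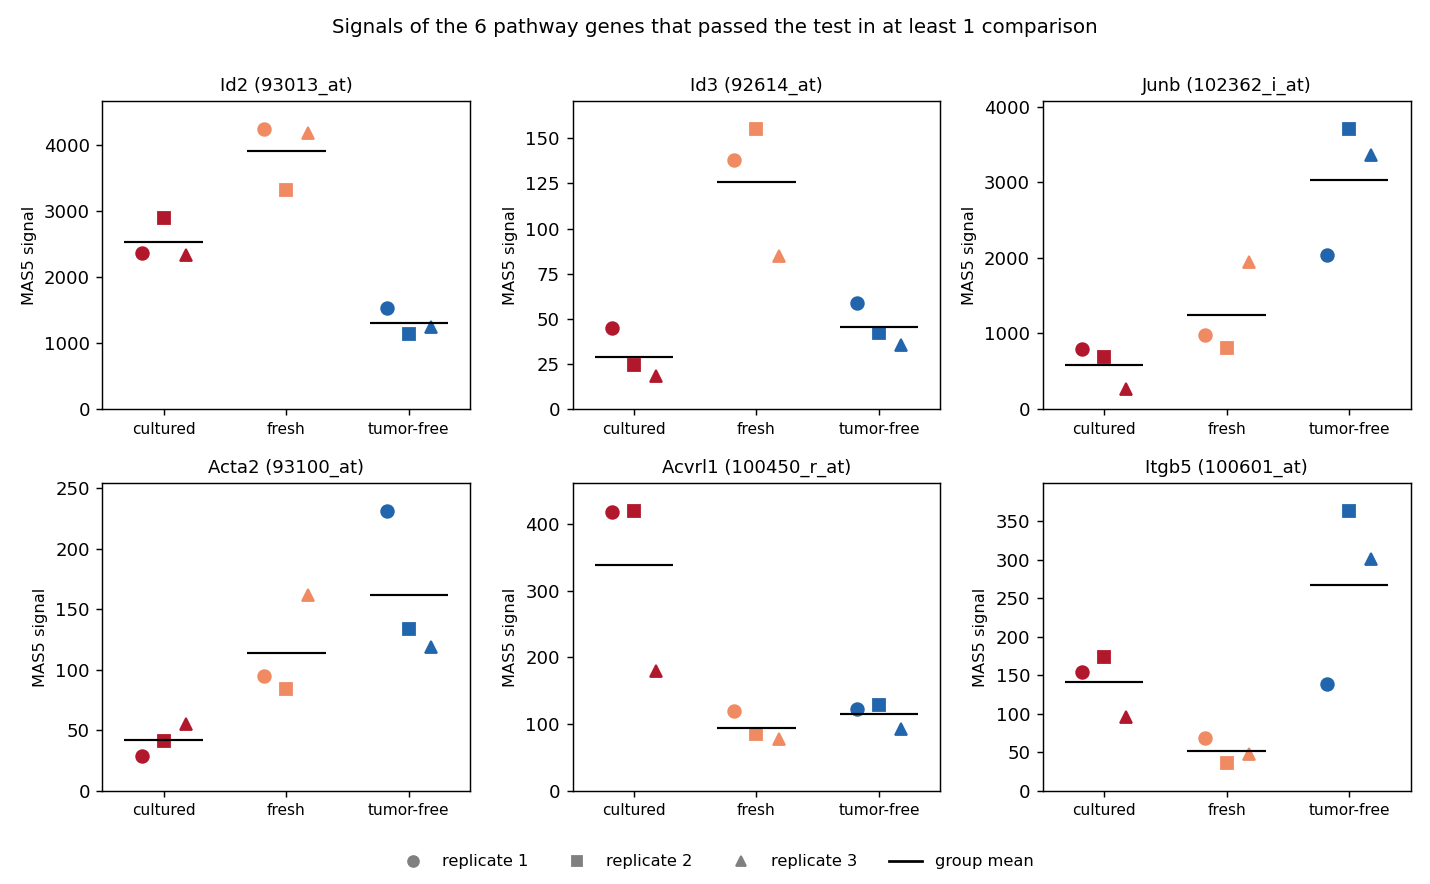
MAS5 signal of the 6 pathway genes that passed the test in at least 1 comparison, by group, with cultured, fresh and tumor-free from left to right. Points are single arrays, symbols are replicate numbers and lines are group means. Id2 separates all 3 groups, Id3 is highest in fresh cells (84.5 to 155), and Junb and Acta2 are lowest in cultured cells.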

How the data were processed

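The authors deposited 1 linear intensity per probe set and array, a signal made with MAS5 according to the submitters' processing notes, whose version and settings were not given in the sources used here. When checked, the 2% trimmed mean of every array was between 100.06 and 100.08, so the arrays were used as deposited. Per the labels' protocols, 5 μg of total RNA per sample were labelled with biotin.

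From these, log2(signal + 7.83) was computed, control probe sets (66) were dropped, as were the 30% dimmest by mean log2 value, and 1 linear model with 3 group means (6 residual degrees of freedom) was fitted to 8695 probe sets in limma 3.58.1 (R 4.3.3) with an intensity trend. Two-sided p-values were adjusted by the Benjamini-Hochberg method across these probe sets, and those below 0.05 were called. Gene symbols came from the platform annotation, which gave 1 symbol to 10855 probe sets and several to 396 and did not list 1237. By gene ID, 10839 matched the RefSeq table of GRCm38.p6 and 0 symbols changed. The probe set with the highest mean represents a gene. No 2 arrays held identical values.

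The named genes are the 4 chosen ones, the pathway genes called in any comparison (up to 5 per list and comparison), a fixed set (Smad2, Smad3, Smad4, Smad7, Tgfb2, Tgfb3, Tgfbr3, Eng and Ski, where measured, and 1 gene not reported here), and for each chosen gene the 5 with the highest correlation. Ifit2, Tmem223, Cx3cr1, Fkbp1a and Actb were picked from those for their values. The members, lists and settings were chosen with earlier results of these data known. The model was tested on simulated data for fresh against tumor-free cells, with 200 changed probe sets of 8695 in 5 simulations. It recovered 15.6% of log2 changes of 1, 63.9% of changes of 2 and 97.3% of changes of 4. A change of the size seen for Tgfb1 would thus mostly be missed.

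Alternatives were other normalizations and offsets, no filter, no trend, leaving out each array, the replicate number or the spike-in class as a block, each class alone, and the beta-actin ratio as a covariate. The class split with fresh 2, the median array, in the high class was chosen after seeing the data.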

Additional observations from a re-analysis of the deposited data

How the results depend on the processing

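Over 126 tested alternatives for Tgfb1 and Tgfbi, none gave a call. Tgfb1 kept its direction in all of them, between -0.91 and -0.37 for fresh over tumor-free, -0.51 and -0.10 for cultured over fresh, and -1.27 and -0.62 for cultured over tumor-free cells, with a lowest adjusted p of 0.0824 (without tumor-free 1). Tgfbi, fresh over tumor-free, changed sign to -0.89 within the high spike-in class, -0.0028 with the beta-actin covariate and -0.35 with fresh 2 in the high class as a block, and ranged from -0.32 to 0.70 when 1 array was left out. With 1 array left out, cultured over fresh ranged from 0.15 to 1.01 and cultured over tumor-free from 0.22 to 1.29. Its cultured over fresh difference was -0.11 within the low class and cultured over tumor-free -0.18 within the high class. The second Tgfbi probe set gave 0.93 and -0.42 in the first and second comparison. Tgfbr1, untested, moved to -1.29 and -0.40 with the smaller and larger offset (fresh over tumor-free), and to 1.97 over fresh and 1.18 over tumor-free cells for the 1 cultured array of the low class. Tgfbr2, untested, moved to 0.27 for cultured over tumor-free cells within the high class. The causes were not tested, but these classes hold fewer arrays.

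The replicate block gave 200, 258 and 144 called probe sets against 165, 234 and 107 without it, and ended none of the 6 calls of pathway genes and gave none for Tgfb1 or Tgfbi. Other named genes were not run under the alternatives. Same-numbered arrays correlated between -0.20 and 0.26 in their deviations from group means. Since 1 array stood apart in each group of 3, these correlations cannot show whether the number pairs arrays. Leaving out 1 array moved the counts over a range of 62 to 624 for fresh against tumor-free, 74 to 489 for cultured against fresh and 21 to 529 for cultured against tumor-free cells, the highest each without tumor-free 1 and the lowest without fresh 2, fresh 1 and tumor-free 3 in that order. For fresh against tumor-free the count was 266 with the class as a block, 71 within the high class, 492 within the low one, 402 with the beta-actin covariate and 277 with fresh 2 in the high class. For cultured against fresh it was 151 within the low class, 441 with the covariate and 556 with fresh 2 in the high class. For cultured against tumor-free it was 221 and 210 within the classes, 204 with the covariate and 177 with fresh 2 in the high class.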

Other observations

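Among genes of the TGF-beta lists that did not pass limma's test, those with the largest difference in each comparison were looked up after their values were seen. Vegfa, the angiogenic growth factor gene, was at 397, 174 and 51.8 in cultured cells, 66.5, 44.7 and 31.7 in fresh cells and 41.3, 2.89 and 18.8 in tumor-free cells, a log2 fold change of 2.76 for cultured over tumor-free cells (adjusted p = 0.0898). Cdkn1a, the cell cycle inhibitor p21, was at 1220, 1200 and 1140 in fresh cells and at 1990, 98.8 and 87.3 in tumor-free cells, so that tumor-free 1 alone lay above the fresh arrays (2.13, adjusted p = 0.337). Id1, the third Id gene measured, was at 7.62, 7.04 and 121 in cultured cells and at 108, 101 and 269 in fresh cells (-2.29, adjusted p = 0.141), with cultured 3 inside the fresh range. Crebbp, a histone acetyltransferase gene whose product works with Smads, had the most negative difference among Smads and regulators for cultured over tumor-free cells. It was at 9.82, 39.7 and 32.2 in cultured cells, 10.8, 5.97 and 127 in fresh cells, and 117, 157 and 101 in tumor-free cells. The difference from tumor-free cells was -2.02 for cultured cells (adjusted p = 0.235) and -2.01 for fresh cells (adjusted p = 0.200).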
